A study of Mus musculus with 20 samples.

Results

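The genes described here are 39 type I interferon-stimulated genes with antiviral roles, a named list that holds the conjugation system of the ubiquitin-like protein ISG15, the IFIT and OAS families, antiviral GTPases and enzymes, membrane and secreted proteins, and the transcription factors that switch the others on. All 39 were found by symbol among the 54838 gene rows of each library, and *Isg15* and *Ifit1*, the markers of the list, were measured in every library. Each member was followed through 12 libraries of sorted mouse crypt cells and 8 libraries of mouse intestinal organoids. The question was when, in which sorted fraction and how far each member rose after deletion of *Mettl3*, and which members fell again when AKFP was expressed in organoids.

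Type I interferons are secreted proteins that bind the receptor chains IFNAR1 and IFNAR2, and the kinases JAK1 and TYK2 on those chains then start a signal that brings STAT2 and IRF9 into a transcription factor complex. This complex binds interferon-stimulated response elements (ISREs) in the promoters of interferon-stimulated genes. Type III interferons use another receptor, built on IFNLR1, that is prominent on intestinal epithelium and feeds into the same complex. METTL3 is the catalytic subunit of the enzyme that writes m6A, a methyl mark on adenosines of mRNA.

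The study asked how m6A bears on intestinal stem cells. All mice and organoids were C57BL/6, and the labels give no ages. Knockout tissue came from *Mettl3* fl/fl mice that also carried Lgr5-EGFP-IRES-CreERT2 and Villin-CreERT2 and received tamoxifen (20 mg/ml) for 4 days, so that Cre acted in the epithelium and not only in stem cells. WT tissue is labelled wild type and untreated, although the protocol also mentions tamoxifen for *Mettl3* fl/fl mice without Cre; whether the WT libraries had tamoxifen is not settled. Crypt cells were sorted on EGFP into Lgr5-high (stem cells) and Lgr5-low fractions. There were 2 libraries each of WT Lgr5-high, WT Lgr5-low, knockout day 4 Lgr5-high and knockout day 4 Lgr5-low, 1 library per fraction at day 3, and 2 libraries at day 6 whose labels name no fraction (the column header of replicate 1 carries "low", that of replicate 2 does not). Organoids of the same floxed and Cre genotype were treated for 2 days with ethanol (labelled wild type) or with 4-OHT, the active form of tamoxifen (labelled *Mettl3*-/-). Of the knockout organoids, 2 libraries had no added factor in their labels, 2 had AKF (retroviral *Ascl2*, *Klf9* and *Fosb*) and 2 had AKFP (the same with *Purb*), and the infected organoids were selected with puromycin. By the protocol 4-OHT also induced the expression of the added factors. The titles of the WT and the plain knockout organoids carry "m3-flag", whose meaning is not given. Nothing in the labels tells if replicates were separate mice or cultures, so p-values measure only the spread between these libraries.

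Levels are in FPKM, fragments scaled to transcript length and library size. *Mettl3* itself stood at 3.42 to 4.86 FPKM in the 4 WT tissue libraries and 2.75 to 4.99 in the 8 knockout tissue libraries, and at 3.23 to 3.56 in WT organoids, 3.33 to 3.62 in the knockout organoids without *Purb* and 3.78 to 4.22 with AKFP; a level per gene cannot check the loss of an exon, so "knockout" means the library labelled so. Among tissue libraries, 1 of knockout day 4 Lgr5-high and 1 of day 6 (both replicate 1) stood apart by gene length. Genes of 6000 exon bases or more lay at a median of -0.51 and -0.48 on the log2 scale against WT. Genes under 2000 exon bases lay at 0.54 and 0.06, and at most at 0.0957 in the other tissue libraries. The day 4 shift bears on short members such as *Ifitm3* (678 exon bases), *Isg15* (756) and *Bst2* (903). The shift of long genes in both libraries bears on members such as *Parp14* (9306 exon bases) and *Ddx60* (8684). All genes together summed to 607817 and 763177 FPKM against 456654 to 534593 in the other tissue libraries. The 5 epithelial markers *Epcam*, *Krt8*, *Krt18*, *Cdh1* and *Vil1* summed to between 2210 and 3503 FPKM in every library. *Lgr5* stood at 10.1 and 10.4 FPKM in WT Lgr5-high, 0.715 and 0.974 in WT Lgr5-low and 0.34 and 1.27 at day 6, so the day 6 cells were nearer to the Lgr5-low fraction by this marker.

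The stretch before the start site of the 6 members with a RefSeq entry that were called at day 4 in either fraction, and of the marker *Ifit1*, is printed here because ISREs are the elements to which the complex binds. Of the 39 members, 31 had a promoter in RefSeq (GRCm38.p6), and the 8 without an entry were *Rtp4*, *Mx2*, *Ifi27l2a*, *Parp9*, *Usp18*, *Mx1*, *Parp14* and *Oas2*. Each line gives the 160 bases before the start, 5′ to 3′ on the strand of the gene, with matches to the ISRE core (GAAA, any 2 bases, GAAA, or its reverse complement) in capitals.
Isg15: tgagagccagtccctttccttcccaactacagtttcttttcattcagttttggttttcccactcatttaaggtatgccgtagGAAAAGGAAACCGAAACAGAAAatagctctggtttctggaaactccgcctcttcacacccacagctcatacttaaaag
Bst2: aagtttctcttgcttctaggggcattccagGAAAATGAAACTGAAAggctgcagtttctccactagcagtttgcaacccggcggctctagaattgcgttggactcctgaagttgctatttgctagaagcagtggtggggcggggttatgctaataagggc
Oas1a: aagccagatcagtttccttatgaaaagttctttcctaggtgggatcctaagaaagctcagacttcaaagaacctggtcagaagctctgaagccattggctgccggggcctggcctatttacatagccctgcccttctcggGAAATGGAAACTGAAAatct
Oas1g: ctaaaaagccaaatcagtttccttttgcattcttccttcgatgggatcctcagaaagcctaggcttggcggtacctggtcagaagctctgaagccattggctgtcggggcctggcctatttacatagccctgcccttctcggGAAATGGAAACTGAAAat
Ifit1: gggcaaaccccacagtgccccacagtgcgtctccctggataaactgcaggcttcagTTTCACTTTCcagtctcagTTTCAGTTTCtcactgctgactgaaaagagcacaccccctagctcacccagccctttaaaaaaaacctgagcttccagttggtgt
Oasl2: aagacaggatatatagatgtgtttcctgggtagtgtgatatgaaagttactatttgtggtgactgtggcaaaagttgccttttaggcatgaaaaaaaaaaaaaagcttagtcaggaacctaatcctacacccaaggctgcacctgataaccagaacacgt
Ifit1bl1, entry 1: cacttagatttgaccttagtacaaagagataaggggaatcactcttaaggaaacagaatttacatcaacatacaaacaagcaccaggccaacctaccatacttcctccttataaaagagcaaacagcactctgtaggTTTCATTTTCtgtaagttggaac
Ifit1bl1, entry 2: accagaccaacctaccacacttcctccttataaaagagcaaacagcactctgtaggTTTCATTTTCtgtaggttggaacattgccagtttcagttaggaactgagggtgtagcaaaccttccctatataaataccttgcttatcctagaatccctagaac
These lie at chr4:156200819-156200978, minus strand (*Isg15*), chr8:71537473-71537632, minus strand (*Bst2*), chr5:120907526-120907685, minus strand (*Oas1a*), chr5:120887614-120887773, minus strand (*Oas1g*), chr19:34640729-34640888, plus strand (*Ifit1*), chr5:114896774-114896933, plus strand (*Oasl2*) and, for the 2 entries of *Ifit1bl1*, chr19:34599428-34599587 and chr19:34601969-34602128, minus strand. *Isg15* held 3 overlapping matches that began 78, 72 and 66 bases before the start. *Bst2* held 2 overlapping matches farther upstream, and *Oas1a* and *Oas1g* 2 overlapping matches each within 20 bases of the start. *Ifit1* held 2 separate ones as the reverse complement. Each entry of *Ifit1bl1* held 1 match as the reverse complement. *Oasl2* held none in this window, which says only that these letters are not in it. Over the window from 250 bases before to 50 bases after the start, 15 of the 31 members (48.4%) held the ISRE core against 3.99% of all 27025 genes in the table. The GAS motif (TTCNNNGAA, its own reverse complement), the element of the type II interferon response, was found in 5 of 31 members (16.1%) against 9.55% of all genes.

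Several members share sequence, and their values are uncertain to that extent. Of the 50-base stretches of the transcripts, 57.6% of *Oas1a* recur in *Oas1g* and 45.7% the other way, and 51.2% of *Ifit3* recur in *Ifit3b* and 45.0% the other way. *Parp9* and *Dtx3l* overlap on opposite strands by 458 exon bases, and *Slfn5* and *Ifi35* overlap an antisense gene by 559 and 290 exon bases. Counting is not stated to have used strand, so reads of such pairs cannot be told apart.

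**Figure D1:**
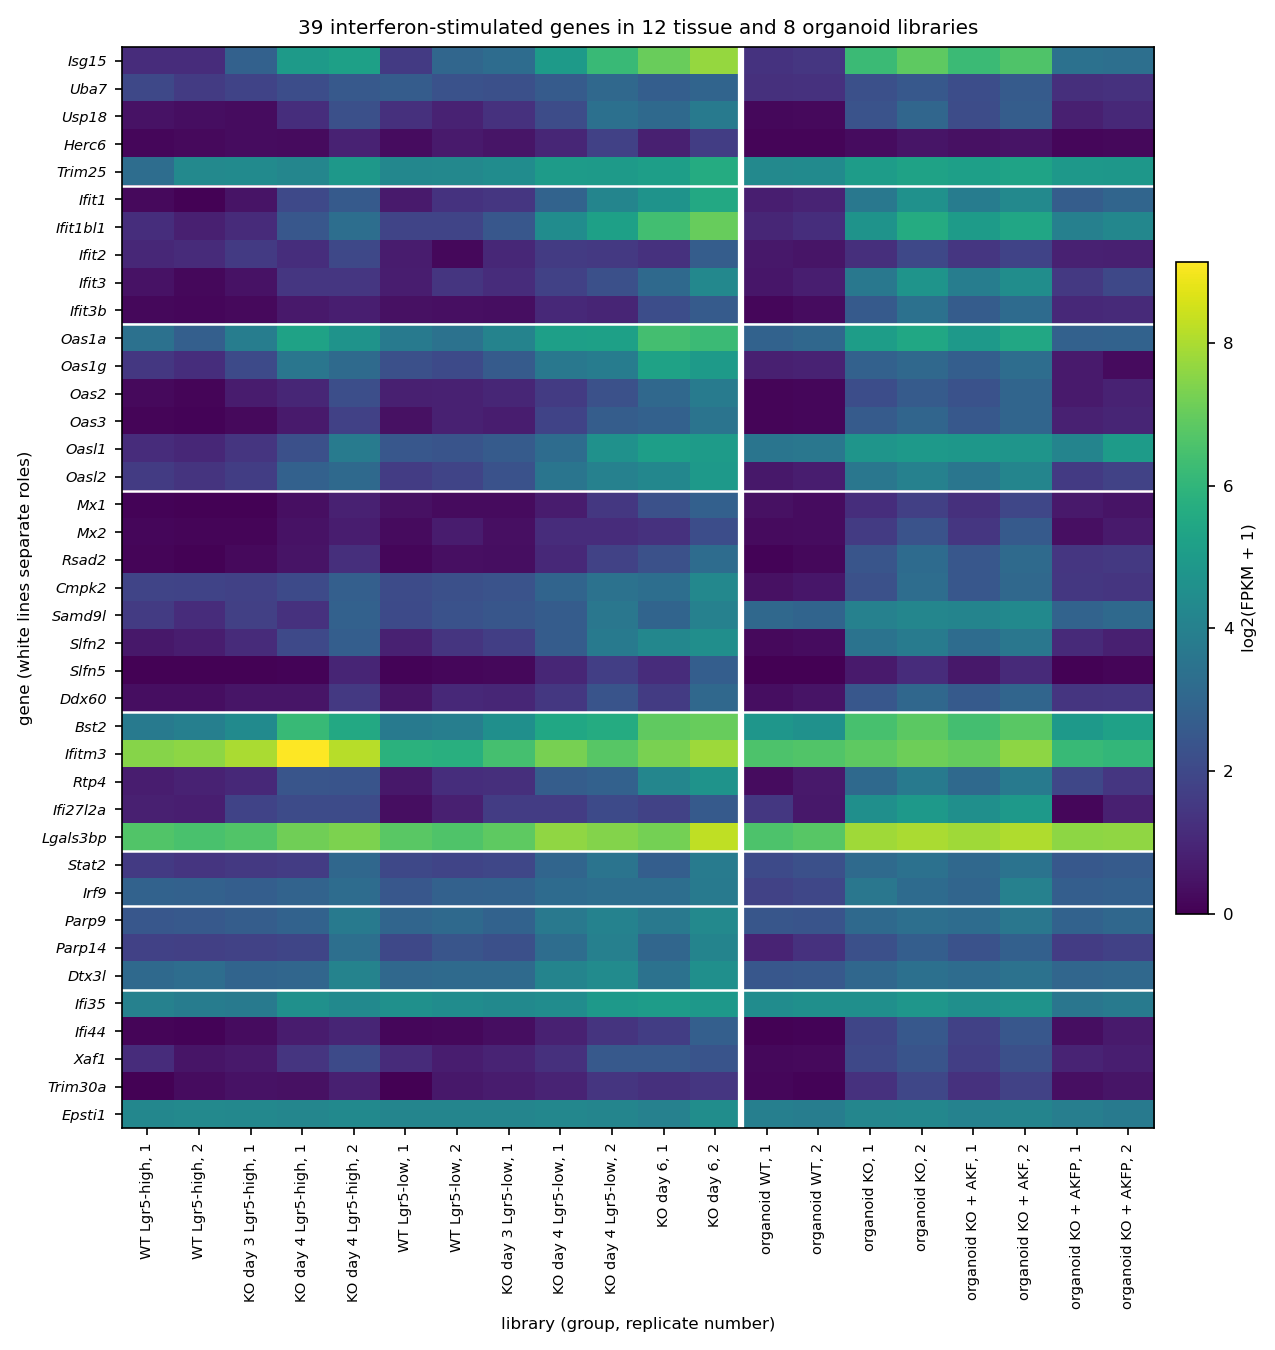
Level of each of the 39 members (rows, grouped by role) in each of the 20 libraries (columns, tissue left and organoids right of the thick line), as log2(FPKM + 1) in colour. Day 6 and day 4 knockout tissue and the knockout and AKF organoids are the bright columns, the AKFP organoids lie between knockout and WT for most members, and *Ifitm3* and *Lgals3bp* are bright throughout.

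In WT crypts the list was quiet, apart from a few members with a high standing level. *Ifitm3*, a membrane protein that blocks entry of enveloped viruses, and *Lgals3bp*, a secreted glycoprotein, had the highest levels, 53.3 to 191 and 90.9 to 110 FPKM over the 4 WT libraries. *Slfn5*, *Ifi44* and *Rsad2*, the last of which encodes the antiviral enzyme viperin, had the lowest means, 0.0661, 0.106 and 0.135 FPKM. The heat map of all libraries shows this spread of standing levels as the contrast between rows in its WT columns.

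Between the sorted WT fractions, more members had a higher level in Lgr5-low than in Lgr5-high cells, but none passed the test in the fit over all tissue groups. Changes are fitted on log2(FPKM + 1) with limma over all genes tested, and a gene is called at a Benjamini-Hochberg adjusted p under 0.05. Of 39 members 0 were called between the fractions, against 0.83% of all 12899 genes called lower in Lgr5-high. An unadjusted limma p under 0.05 was found for 6 members, and for 1758 of all 12899 genes. In 27 of 39 members both Lgr5-low libraries lay above both Lgr5-high libraries, which 24.3% of all genes showed. The median over the members was -0.34 on the log2 scale (Lgr5-high minus Lgr5-low), beside 0.10 over all genes. Markers of cell state differed between the fractions as well: 5 of 5 enterocyte markers were called lower in Lgr5-high (median -3.61) and 2 of 4 Lgr5 stem cell markers higher (median 2.30), and their part in the members' difference was not tested. When the fit held the compared groups alone, in which 22 members passed the filter, 6 members were called. Over all genes that fit called 695 higher and 737 lower, against 48 and 107 in the fit over all tissue groups.

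*Ifitm3* went the other way, at 178 and 191 FPKM in Lgr5-high against 55.9 and 53.3 in Lgr5-low. The libraries did not overlap, and the difference was 1.74 ± 0.34 on the log2 scale (SE; limma adjusted p = 0.0519, unadjusted 0.000722). *Oas1g*, one of the enzymes that make the 2′-5′ oligoadenylates which activate RNase L, had 1.78 and 1.26 FPKM in Lgr5-high and 3.66 and 3.2 in Lgr5-low, a difference of -0.82 ± 0.23 (adjusted p = 0.134). *Ifi35*, an interferon-induced leucine zipper protein, had 15.2 and 13.2 against 23.3 and 21 FPKM (adjusted p = 0.253). These 3 had the smallest unadjusted p among the members, and none passed.

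At day 3 the first members stood above WT, *Isg15* and *Ifi27l2a* foremost. With 1 library per fraction there is no replicate check and no test, so a member is counted where it lay 1 or more above the mean of the WT libraries of its fraction on the log2 scale. In Lgr5-high 2 of 39 members did, beside 0.853% of all genes, and in Lgr5-low 1 did, beside 0.853% as well (the same number of genes, 110, in both fractions). *Isg15*, the ubiquitin-like modifier that the conjugation system attaches to other proteins, had 6.18 FPKM in Lgr5-high against 1.22 and 1.25 in WT (1.68 on the log2 scale). In Lgr5-low it had 8.41 against 1.94 and 7.02 (0.96), where 1 of the WT libraries came close to the day 3 level. *Ifi27l2a*, a small interferon-induced membrane protein, had 2.54 against 0.732 and 0.721 FPKM in Lgr5-high and 2.12 against 0.25 and 0.756 in Lgr5-low. *Oas1a* in Lgr5-high (0.81) and *Bst2* in Lgr5-low (0.74), whose product tethers budding virus to the cell surface, were the next largest.

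Most members lay within 1 of WT on the log2 scale at day 3. The day 3 library lay above both WT libraries in 26 of 39 members in Lgr5-high and 24 of 39 in Lgr5-low, where 43.4% and 42% of all genes did. The medians over the members were 0.13 and 0.19, beside 0.05 and 0.04 over all genes. *Ifit1*, which binds viral RNA with unmethylated caps, had 0.407 FPKM in Lgr5-high and 1.69 in Lgr5-low, against 0.17 and 0.0419 and 0.588 and 1.51 in WT.

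At day 4 *Isg15*, *Bst2*, *Oas1g*, *Rtp4* and *Oasl2* had risen in both fractions, *Oas1a* was also called in Lgr5-high and *Ifit1bl1* in Lgr5-low. In each fraction 6 of 39 members were called higher and none lower, where 0.729% of all genes were called higher in Lgr5-high and 0.279% in Lgr5-low. Of the 39 members, 17 did not reach 1 FPKM in 2 WT libraries and were tested only through other tissue libraries. Both knockout libraries lay above both WT libraries in 35 of 39 members in Lgr5-high, as did 24.9% of all genes, and in 36 of 39 in Lgr5-low, as did 29.1%. Medians over the members were 0.78 and 1.14, beside -0.02 and 0.03 over all genes. The 5 enterocyte markers had medians of 1.69 and 0.32, with none called, and their part in the members' change was not tested.

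*Isg15* had 31 and 35.5 FPKM in the knockout Lgr5-high libraries and 31 and 72.1 in the Lgr5-low ones. All 4 lay above every WT library, in Lgr5-high at 26.9 times the WT mean and in Lgr5-low at 11.5 times. The fitted changes were 3.93 ± 0.50 (adjusted p = 0.0164) and 3.32 ± 0.50 (adjusted p = 0.0392), the largest of any member in both fractions.

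*Bst2* stood at 70.9 and 44.8 FPKM in knockout Lgr5-high against 12.6 and 14.3 in WT, and at 43.2 and 48.8 against 12.4 and 14.1 in Lgr5-low. *Rtp4*, a chaperone that helps receptors reach the cell surface and is induced by interferon, stood at 4.31 and 4.25 against 0.648 and 0.844 FPKM and at 5.49 and 6.24 against 0.518 and 1.31. For both genes the groups were well apart in either fraction, with changes of 1.99 and 1.72 for *Bst2* and 1.60 and 1.87 for *Rtp4* (adjusted p between 0.0122 and 0.0325).

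Among the OAS family *Oas1a*, *Oas1g* and *Oasl2* were called in Lgr5-high and *Oas1g* and *Oasl2* in Lgr5-low, out of 6 members, all 6 of which had a positive fitted change in both (medians 1.71 and 1.59). *Oas1a* had 37.7 and 25.1 FPKM in knockout Lgr5-high against 9.53 and 5.8 in WT, a change of 1.91 ± 0.27 (adjusted p = 0.0225). *Oas1g* had 11.1 and 7.99 against 1.78 and 1.26 (2.06 ± 0.23, adjusted p = 0.00877). *Oasl2*, an OAS-like protein with ubiquitin-like domains, had 10.8 and 15.3 against 2.05 and 2.71 FPKM in Lgr5-low (2.04 ± 0.28, adjusted p = 0.0316).

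Of the 5 IFIT members *Ifit1bl1* was called in Lgr5-low, at 20.8 and 36.1 against 2.63 and 2.69 FPKM (2.96 ± 0.36, adjusted p = 0.0269). *Ifit1* had 3.04 and 4.99 FPKM in Lgr5-high and 6.58 and 17 in Lgr5-low and missed the threshold in both (2.16 ± 0.45, adjusted p = 0.0672, and 2.55 ± 0.45, adjusted p = 0.056), although no knockout library overlapped WT. None of the 8 antiviral GTPases and enzymes passed by limma in either fraction, although 6 of 8 had an unadjusted p under 0.05 in Lgr5-low and 1 of 8 in Lgr5-high. The same held for the transcription factors *Stat2* and *Irf9*, both parts of the complex that binds ISREs, with unadjusted p under 0.05 for 2 of 2 in Lgr5-low and 0 of 2 in Lgr5-high. The PARP and DTX3L group gave 3 of 3 and 1 of 3 at that unadjusted level, and none called. Every member of these roles was lower in knockout Lgr5-high replicate 1, where long genes lay low, than in replicate 2. *Ddx60* had 0.448 against 1.84 FPKM, *Parp14* 2.8 against 9.16 and *Stat2* 2.09 against 7.32. The part of that library in the lower counts of Lgr5-high was not tested. *Epsti1*, an epithelial-stromal interaction protein induced by interferon, had fitted changes of -0.02 and 0.03, whose sign turned with the scaling of the libraries.

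The day 4 change did not pass a test of difference between the fractions for any member. Of 39 members 0 were called in limma's interaction term, and 0 had an unadjusted p under 0.05. Over all 12899 genes 2 were called (0.0155%) and 223 had an unadjusted limma p under 0.05, so 0 members called is at the background. The smallest unadjusted p belonged to *Ifit1bl1*, with -1.07 ± 0.51 (change in Lgr5-high minus change in Lgr5-low, adjusted p = 0.963, moderated test of limma across all genes), then *Oas1g* (0.45) and *Oasl2* (-0.54).

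The day 4 counts rest on few libraries. Leaving out the library of knockout Lgr5-high that stood apart (replicate 1) gave 2 of 39 members called in that fraction, leaving out replicate 2 gave 6, of which 5 were among the 6 above, and leaving out either WT library gave 0; in Lgr5-low, leaving out any of the 4 libraries gave 0. The count was also 0 in either fraction when the fit held the compared groups alone, and 0 in Lgr5-low with libraries scaled to equal FPKM sums.

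**Figure D2:**
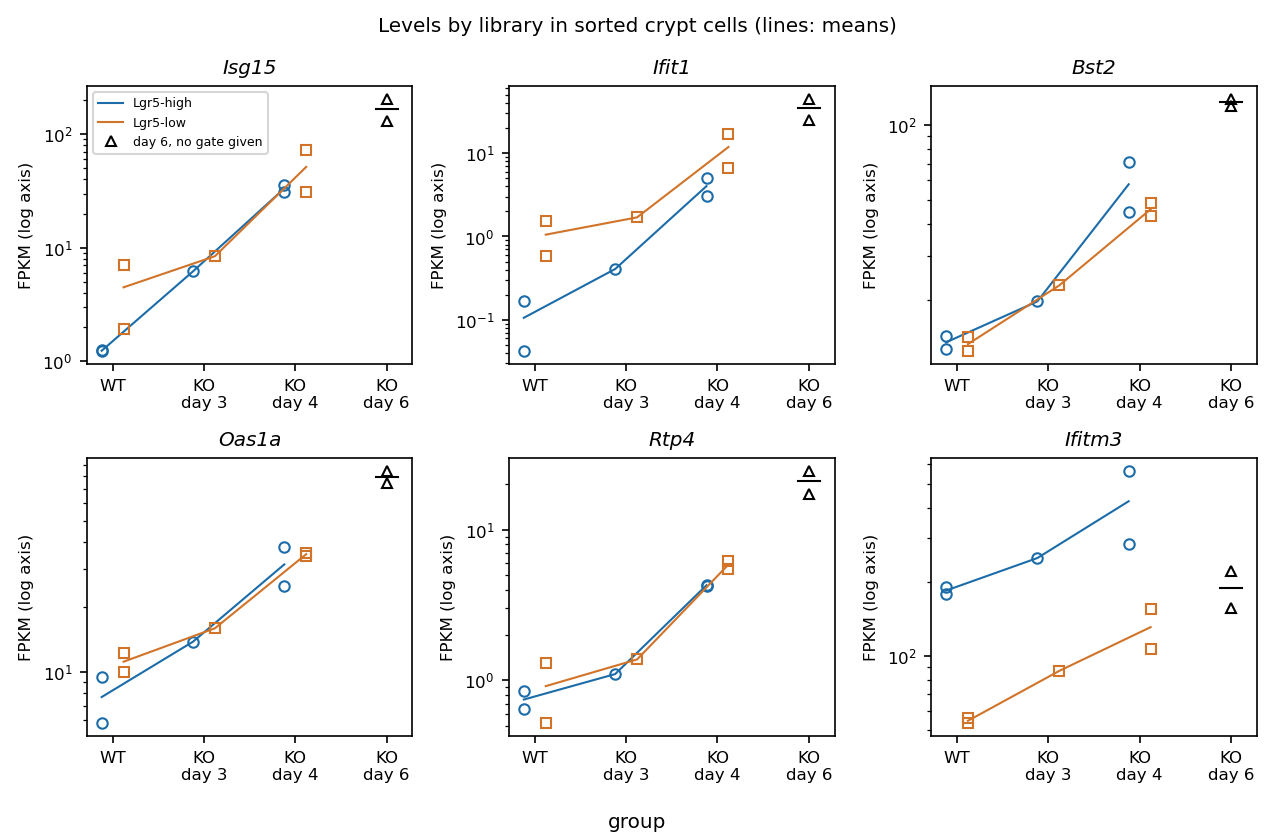
FPKM (log axes, own range in each panel) of 6 members in each tissue library: WT, knockout day 3 and day 4 by sorted fraction (circles Lgr5-high, squares Lgr5-low, lines through the means) and knockout day 6 (triangles, bar at the mean). *Isg15* stood at 1.22 and 1.25 FPKM in WT Lgr5-high and at 131 and 206 at day 6, while *Ifitm3* at day 6 lay within the range of the Lgr5-high and Lgr5-low cells of earlier days.

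By day 6 most of the list had risen. Against WT Lgr5-high 33 of 39 members were called higher, where 10.1% of all genes were, and against WT Lgr5-low 25 of 39, where 6.22% of all genes were; no member was called lower in either. The medians over the members were 1.98 and 1.75, beside -0.16 and -0.08 over all genes. As at day 4, 17 of the members were tested only because of tissue libraries beyond WT, so the shares over all genes are no test of the list. Since the day 6 labels name no fraction, both WT fractions are given as reference. Markers of cell state moved with the first of these: 5 of 5 enterocyte markers were called higher (median 3.99) and 4 of 4 Lgr5 stem cell markers lower (median -2.68) against WT Lgr5-high, where 11.9% of all genes were called lower. Against WT Lgr5-low the medians were 0.42 and -0.92, with none of either list called, and the part of cell state in the members' rise was not tested.

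*Isg15* reached 131 and 206 FPKM, 37.6 times the mean of WT Lgr5-low, a change of 5.09 ± 0.50 (adjusted p = 0.00157). *Ifit1* reached 24.7 and 44.9 FPKM against 0.588 and 1.51 in WT Lgr5-low (4.10 ± 0.45, adjusted p = 0.00218). *Ifit1bl1* reached 81.6 and 128 FPKM against 2.63 and 2.69 (4.81 ± 0.36, adjusted p = 0.000685). These 3 had the largest changes, and in each both day 6 libraries lay above every other tissue library. *Rtp4* (17.2 and 24.6 FPKM, change 3.53), *Slfn2*, a Schlafen protein (17.7 and 21.8 FPKM, change 3.26), *Bst2* (119 and 128 FPKM, change 3.13), *Oas1g* (2.97) and *Oasl2* (2.81) came next.

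By role, all 6 OAS members were called against either WT fraction, with changes of 2.54 to 2.97 against Lgr5-low. Of the IFIT family 4 of 5 were called against either, *Ifit2* being the exception, at 1.5 and 5.55 FPKM (change 1.57, adjusted p = 0.0518 against Lgr5-low). Of the 8 antiviral GTPases and enzymes 8 were called against Lgr5-high and 6 against Lgr5-low, where *Samd9l* and *Ddx60* missed. The dynamin-like GTPase *Mx1* stood at 3.76 and 6.0 FPKM against 0.319 and 0.211 in WT Lgr5-low (2.19), and *Rsad2* at 3.85 and 8.31 against 0.12 and 0.298 (2.48).

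In the ISG15 system 4 of 5 were called against Lgr5-high and 2 of 5 against Lgr5-low, namely *Isg15* and *Usp18*, the protease that removes ISG15 and restrains the receptor (7.68 and 12.8 FPKM against 1.38 and 0.843, change 2.38). *Uba7*, the activating enzyme of the system, moved least, at 5.57 and 6.72 FPKM against 5.29 and 3.91 (0.36 ± 0.26, adjusted p = 0.43). The ligase *Trim25* stood at 34 and 47.8 against 17.6 and 18.4 FPKM (1.12, adjusted p = 0.0794). The PARP and DTX3L group gave 2 calls of 3 against Lgr5-high and 0 of 3 against Lgr5-low, where limma's unadjusted p was 0.0155 for *Parp9*, 0.0232 for *Parp14* and 0.0613 for *Dtx3l*.

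*Ifitm3* was called against 1 of the WT fractions. It had 156 and 221 FPKM at day 6, within the day 4 range, and was called against WT Lgr5-low (1.75 ± 0.34, adjusted p = 0.0144). Against WT Lgr5-high its change was 0.01 ± 0.34 (adjusted p = 0.985), and this turned negative when libraries were scaled to equal FPKM sums.

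Between day 4 and day 6 members were called against the Lgr5-high fraction, and the difference between the references was not tested. Against day 4 Lgr5-high 15 of 39 members were called higher, where 1.98% of all genes were, led by *Ifit1bl1* (3.79), *Ifit1* (2.80), *Isg15* (2.27) and *Ifit3* (2.25). Against day 4 Lgr5-low limma called 0 of 39, where 0.0543% of all genes were called higher. Unadjusted p was under 0.05 for 15 members, and for 1069 of all 12899 genes. The smallest belonged to *Ifit3b*, at 3.43 and 5.15 FPKM against 1.07 and 0.944 (1.38 ± 0.20, limma adjusted p = 0.0843), followed by *Rtp4* (1.66) and *Bst2* (1.41). Against day 4 Lgr5-high 2 of 5 enterocyte markers were called higher (median 2.29) and 3 of 4 Lgr5 stem cell markers lower (median -2.36), where 1.23% of all genes were called lower. Against day 4 Lgr5-low the medians were 0.10 and -0.67, with none called, and the part of cell state in the members' change was not tested.

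Without day 6 replicate 1, which stood apart by gene length, 30 members were called against WT Lgr5-high and 22 against WT Lgr5-low, but 3 against day 4 Lgr5-high; the last count was also 3 without day 4 Lgr5-high replicate 1, 23 (22 higher, 1 lower) without its replicate 2, and 4 without day 6 replicate 2. Without day 6 replicate 2, 21 were called against WT Lgr5-high; without 1 of the WT libraries, 19 and 20 against Lgr5-high and 14 against Lgr5-low either way. With the libraries scaled to equal FPKM sums, which put the median of all genes at -0.46, -0.29 and -0.32, the counts were 21 against WT Lgr5-high, 18 against WT Lgr5-low and 1 against day 4 Lgr5-high.

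Over time most members had a higher mean at each later day. In 29 of 39 members the mean log2 level was higher at day 3 than in WT Lgr5-high, higher again in Lgr5-high at day 4 and highest at day 6, an order that 10.3% of all genes showed. Along Lgr5-low 28 of 39 members had it, beside 12.5% of all genes. Since 17 of the members passed the filter only through libraries beyond WT, and the list was chosen with earlier results known, these shares are no test of it. A change of 1 or more on the log2 scale was first reached at day 3 by 2 members, at day 4 by 14 and at day 6 by 19 against Lgr5-high. Of all genes 0.853%, 3.07% and 6.21% first reached it on these days. *Ifit2*, *Irf9*, *Dtx3l* and *Epsti1* never reached it. Against Lgr5-low it was first reached by 1, 22 and 10 members, beside 0.853%, 2.18% and 4.16% of all genes. *Uba7*, *Herc6*, *Irf9*, *Parp9*, *Ifi35* and *Epsti1* never reached it. Day 3 is a single library per fraction, and the day 6 libraries serve both orders. The day 4 mean of Lgr5-high holds replicate 1, which stood apart by gene length. Without that library the median over the members at day 4 in Lgr5-high was 1.15, against 0.78 with it. Whether the day of first reaching 1 differs between the fractions was not tested.

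Libraries of the same group also differed across many members at once. In day 6 replicate 2 34 of 39 members were higher than in replicate 1 (median 0.66 on the log2 scale), where 74.6% of all genes were (median 0.25). In knockout Lgr5-low at day 4 replicate 2 was higher in 32 of 39 (median 0.51), where 42.5% of all genes were higher. In knockout Lgr5-high at day 4 replicate 2 was higher in 33 of 39 (median 0.57), where 64.1% of all genes were higher. In WT Lgr5-high replicate 2 was higher in 14 of 39 (median -0.04), where 51.8% of all genes were.

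**Figure D3:**
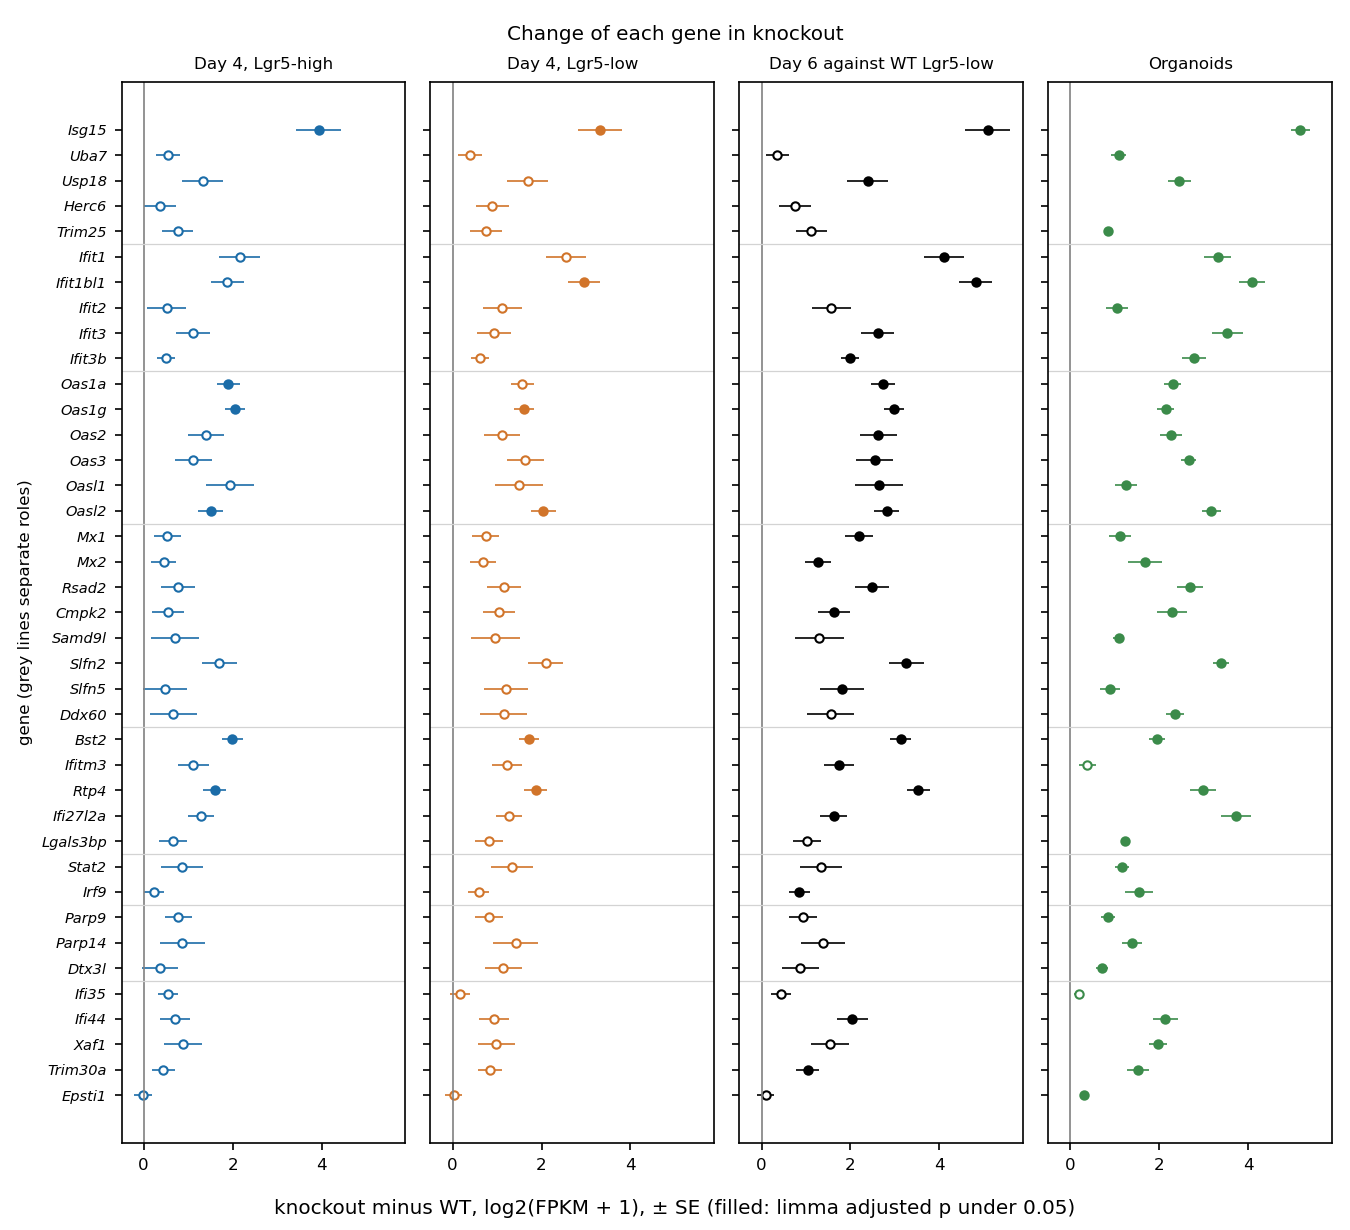
Fitted change of each member (rows, by role) in knockout against WT on log2(FPKM + 1), with SE, at day 4 in Lgr5-high and Lgr5-low, at day 6 against WT Lgr5-low, and in organoids. Filled points passed limma's adjusted p under 0.05, 6, 6, 25 and 36 members in turn, and *Herc6* has no organoid point because it did not pass the filter on low values.

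In organoids, which hold epithelium grown apart from the body, all but 2 of the members tested had risen in knockout. Of 38 members 36 were called higher and 0 lower, where 16.7% of all 12657 genes were called higher, and in 38 of 38 both knockout libraries lay above both WT libraries, which 36.6% of all genes showed. The median over the members was 1.96, beside 0.01 over all genes. Of the 38 members, 23 did not reach 1 FPKM in 2 WT libraries and were tested only through other organoid libraries. The list was also chosen with earlier results known, so the shares over all genes are no test of it. *Herc6*, the mouse ligase for ISG15, did not pass the filter, at 0.236 and 0.446 FPKM in knockout against 0.102 and 0.0965.

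*Isg15* stood at 74.2 and 117 FPKM in knockout organoids against 1.54 and 1.71 in WT, 58.7 times the WT mean (5.16 ± 0.21, adjusted p = 0.000151). *Ifit1bl1* stood at 25 and 48.5 against 0.956 and 1.29 FPKM (4.08 ± 0.29, adjusted p = 0.000417). *Ifit1* stood at 11.5 and 23.6 against 0.683 and 0.872 (3.31 ± 0.31, adjusted p = 0.000851). In each of the 3 genes the lowest knockout library stood far above the highest WT library.

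*Ifi27l2a* stood at 22.4 and 29.8 FPKM in knockout against 1.78 and 0.501 in WT organoids (3.72 ± 0.33). In tissue at day 6 it had 2.46 and 5.01 FPKM, but tissue and organoid values come from separate tables and were not tested against each other. *Ifit3* (11.7 and 25.3 FPKM against 0.473 and 0.695, change 3.53), *Slfn2* (10.3 and 12.9 against 0.165 and 0.226, 3.39), *Oasl2* (11.2 and 15.3 against 0.497 and 0.662, 3.16) and *Rtp4* (7.64 and 12.7 against 0.235 and 0.537, 2.98) completed the 8 largest changes. *Ifi35* (22.6 and 27.2 FPKM against 20.7 and 22.5, adjusted p = 0.264) and *Ifitm3* (117 and 138 against 94.7 and 101, adjusted p = 0.172) were not called.

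By role, all 6 OAS members, 5 of 5 IFIT members, 8 of 8 antiviral GTPases and enzymes, both transcription factors and 3 of 3 of the PARP and DTX3L group were called. Among the smaller changes, *Dtx3l*, a ubiquitin ligase that pairs with PARP9, rose by 0.71 ± 0.13, *Trim25* by 0.84 ± 0.09 and *Epsti1* by 0.30 ± 0.08 on the log2 scale. *Stat2* had 8.05 and 9.77 FPKM in knockout against 3.16 and 3.73 (1.15 ± 0.15), and *Irf9* 11.3 and 8.28 against 2.5 and 2.82 (1.55 ± 0.31).

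The members called in organoids overlapped with those called in tissue, which share no library. Of the 33 called at day 6 against WT Lgr5-high 32 were also called in organoids (32 of 36), and of the 25 called against WT Lgr5-low 24 were (24 of 36). Over all genes tested in both systems, 55.7% of those called higher against WT Lgr5-high and 70% of those called higher against WT Lgr5-low were also called higher in organoids, and 33.5% and 26.3% of those called higher in organoids were called at day 6. *Ifi35* was called at day 6 against WT Lgr5-high and *Ifitm3* against WT Lgr5-low, but neither in organoids. *Ifit2*, *Dtx3l* and *Epsti1* were called in organoids and against neither WT fraction; whether the changes differ between tissue and organoids was not tested. 4-OHT is given in every knockout organoid and in no WT one, so its own effect cannot be told apart from that of the deletion.

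With AKF no member passed the test against knockout without a factor. limma called 0 of 38, and 0 had an unadjusted p under 0.05. Over all 12657 genes 5 were called higher and 1 lower (0.0474%), and 582 had an unadjusted limma p under 0.05. So 0 members called is at the background. *Isg15* stood at 74 and 97.5 FPKM with AKF against 74.2 and 117 without (-0.13 ± 0.21), and *Ifit1* at 13.3 and 18.7 against 11.5 and 23.6 (-0.07 ± 0.31). The fitted difference was positive in 19 of 38 members. The smallest unadjusted p belonged to *Epsti1* (-0.13 ± 0.08), *Ifitm3* (0.28 ± 0.19) and *Slfn2* (-0.22 ± 0.17), and none passed.

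With AKFP most members fell. Against knockout without a factor 32 of 38 were called lower and 0 higher, where 13.2% of all genes were called lower, and against AKF, which lacks *Purb* among the factors, 31 of 38, where 12.7% were. The medians over the members were -1.31 and -1.22, beside 0.04 over all genes in both. The limit from the filter holds here too, since 23 of the 38 were tested only through libraries beyond WT. Of the 5 enterocyte markers 3 were called lower in knockout against WT (median -1.06) and 3 lower with AKFP against knockout (median -0.84). Of the 4 Lgr5 stem cell markers 3 were called lower in knockout against WT (median -0.59), where 11.5% of all genes were. With AKFP against knockout 2 were called higher (median 0.43), where 13.2% were. *Ascl2* is 1 of these 4 markers and also 1 of the added factors, so its level there cannot be read as cell state. It had 12.4 and 12 FPKM in knockout, 36.8 and 38.6 with AKF and 19 and 19.2 with AKFP. *Olfm4*, a marker of Lgr5 stem cells, had 467 and 548 FPKM in WT organoids; the knockout ones had 217 and 226 and the AKFP ones 504 and 509. The part of these markers' cells in the members' changes was not tested. Both comparisons of AKFP use the same AKFP libraries. AKF and AKFP organoids were infected and selected with puromycin, so AKFP against AKF compares organoids that share this. If the plain knockout organoids were not, infection and selection cannot be told apart from the factors in comparisons against them.

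*Isg15* stood at 9.62 and 9.23 FPKM with AKFP, 10.1 times below knockout (-3.17 ± 0.21, adjusted p = 0.000383) and 5.8 times above WT (1.99 ± 0.21, adjusted p = 0.000673). *Ifit1* fell to 5.51 and 6.87 FPKM (-1.30 ± 0.31, adjusted p = 0.025), and *Ifit1bl1* to 14.9 and 17.6 (-1.06 ± 0.29, adjusted p = 0.037). Both stayed above WT, by 2.01 and 3.02.

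*Ifi27l2a* fell the most, to 0.109 and 0.736 FPKM (-4.27 ± 0.33), which overlaps WT. *Slfn2* fell to 1.15 and 0.745 FPKM (-2.69), *Ifit3* to 1.9 and 3.0 (-2.42), *Oasl2* to 1.95 and 2.47 (-2.14) and *Ifit3b* to 1.06 and 1.15 (-1.92). *Oas1a* changed by -2.42 against knockout, to 6.11 and 6.29 FPKM, and its difference from WT (6.39 and 7.28 FPKM) did not pass (-0.12 ± 0.19, adjusted p = 0.642). *Oas1g*, its near copy, stood at 0.563 and 0.219 FPKM, below both WT libraries at 0.732 and 0.841, with a fitted difference of -0.37 from WT (adjusted p = 0.171).

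The members ended at different heights relative to WT. In 29 of all 39 members (28 of the 38 tested) both AKFP libraries lay above both WT and below both knockout libraries, which 5.15% of all genes tested showed. *Oas1a*, *Oas1g*, *Ifitm3* and *Ifi35* lay below both WT and knockout, and *Uba7*, *Samd9l*, *Ifi27l2a* and *Epsti1* lay below knockout and overlapped WT. *Oasl1* and *Dtx3l* lay above WT and overlapped knockout. Against WT 17 of 38 were called higher with AKFP, where 24.6% of all genes were, and 1 was called lower, *Ifi35* (-0.82 ± 0.12, adjusted p = 0.00201), where 18.8% were.

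*Oasl1* was uneven between the AKFP libraries, at 16.4 and 31.2 FPKM with AKFP against 26.3 and 29.2 in knockout (-0.28 ± 0.25, adjusted p = 0.429), so 1 AKFP library stood above both knockout ones. *Dtx3l* (-0.15), *Parp9* (-0.29), *Lgals3bp* (-0.30), *Irf9* (-0.66) and *Ifit2* (-0.78) were the other members not called lower against knockout. *Lgals3bp* stood at 190.4 and 198 FPKM with AKFP, 230.2 and 250.3 in knockout and 95 and 108 in WT.

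Libraries of 1 organoid group differed across many members as well. In knockout and in AKF replicate 2 was higher than replicate 1 in 37 of 38 members (medians 0.42 and 0.48), where 53.9% and 59.4% of all genes were. In AKFP 27 of 38 were higher (median 0.08), where 49.7% of all genes were. Leaving out 1 library at a time gave 29 to 34 members called in knockout against WT, 19 to 27 in AKFP against knockout, 19 to 29 against AKF and 7 to 13 against WT. Against knockout the lowest count, 19, came without knockout replicate 2 and without AKFP replicate 2, and it was 20 without AKFP replicate 1. Against AKF the count was 20 without AKF replicate 2, 20 without AKFP replicate 1 and 19 without AKFP replicate 2. Against WT it was 7 without WT replicate 1, 11 without WT replicate 2 and 10 without AKFP replicate 2.

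**Figure D4:**
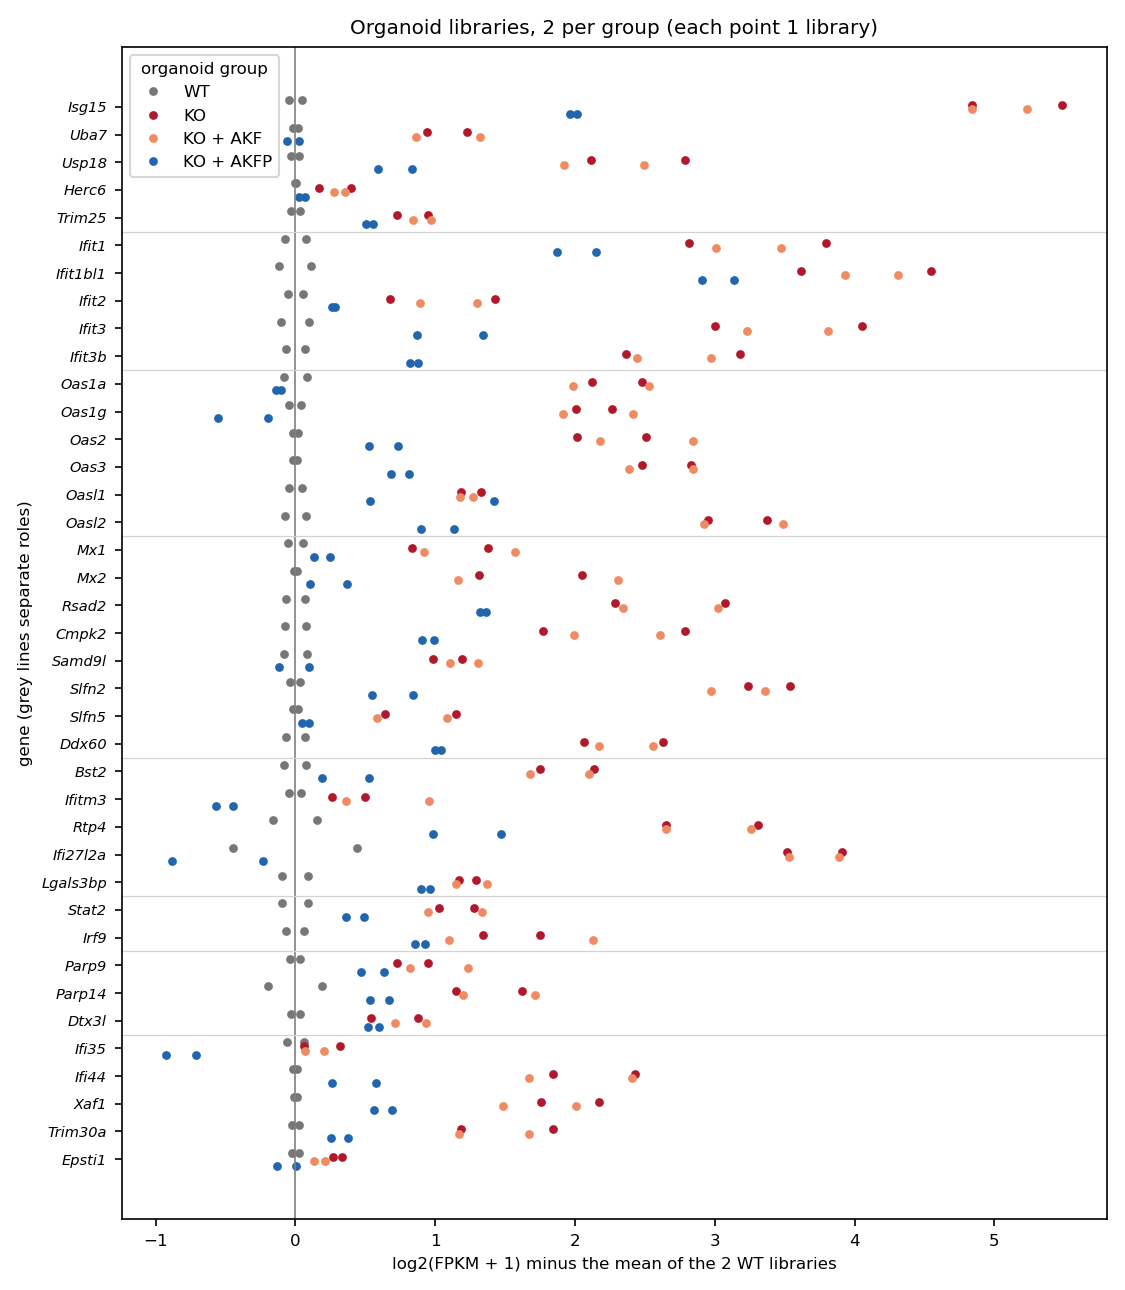
Each organoid library as a point, 4 groups of 2, for every member (rows, by role): log2(FPKM + 1) minus the mean of the WT libraries. Knockout and AKF points lie to the right of WT, AKFP points lie between WT and knockout for 29 of the 39 members, and those of *Oas1a*, *Oas1g*, *Ifitm3* and *Ifi35* lie left of WT.

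Interferon transcripts were at or near 0 in every library. Of the 10 ligand genes in the list, *Ifnb1*, *Ifna1*, *Ifna2*, *Ifna4* and *Ifna5* were listed at 0 FPKM in all 20 libraries. The highest value of any other ligand gene (*Ifne*, *Ifnk*, *Ifng*, *Ifnl2* and *Ifnl3*) in any library was 0.121 FPKM, for *Ifng*, the type II interferon. Without counts the depth behind these zeros is not known.

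Of the 6 receptor genes *Ifnar2* and *Ifnlr1* were called higher at day 6 against WT Lgr5-high and *Ifnar2* against WT Lgr5-low. At day 4 limma called 0 of 6 in either fraction, with 2 in Lgr5-high and 1 in Lgr5-low at an unadjusted p under 0.05; with 0.729% and 0.279% of all genes called higher, 0 of 6 is near the background. *Ifnar2* stood at 4.47 and 4.39 FPKM at day 6 against 2.21 and 2.09 in WT Lgr5-low (0.78 ± 0.19, adjusted p = 0.0296). *Ifnlr1*, the type III receptor chain, stood at 3.71 and 4.68 against 1.14 and 1.41 FPKM in WT Lgr5-high (1.19 ± 0.26, adjusted p = 0.0141). In organoids *Ifngr1*, a chain of the type II receptor, was the 1 of 6 called higher in knockout (0.34 ± 0.06, adjusted p = 0.00756), a share near the 16.7% of all genes called higher.

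Among the signalling genes *Irf7*, the factor that amplifies interferon production, was called in both systems. Its level was 4.09 and 3.91 FPKM in WT Lgr5-low, 7.03 and 12.5 in Lgr5-low at day 4 and 18.6 and 18.7 at day 6 (1.98 ± 0.25, adjusted p = 0.0031), and was also called at day 4 in Lgr5-high (1.38, adjusted p = 0.0447). In organoids it had 20.9 and 24.9 FPKM in knockout against 2.07 and 2.56 in WT, and 3.74 and 3.37 with AKFP (change -2.39 ± 0.14, adjusted p = 0.000256). *Irf1*, another factor of the family, was called higher in knockout organoids, at 8.97 and 9.66 FPKM against 3.63 and 4.52 (1.03 ± 0.15, adjusted p = 0.00353), and lower with AKFP against knockout (-0.53 ± 0.15, adjusted p = 0.0389).

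Of the 7 inhibitors *Socs1*, which blocks the JAK kinases, had 2.28 and 3.0 FPKM in knockout Lgr5-high at day 4 against 0.803 and 0.707 in WT (1.05 ± 0.23, adjusted p = 0.0787) and 1.19 and 1.79 at day 6. In Lgr5-low at day 4 it had 2.27 and 3.34 FPKM against 1.1 and 0.701 (adjusted p = 0.123). limma called 0 of 7 inhibitors against WT at day 4 and day 6, and at day 4 3 in Lgr5-high and 1 in Lgr5-low had an unadjusted p under 0.05. Since at most 11.9% of all genes were called in 1 direction in these comparisons, 0 of 7 is near the background. In organoids *Socs1* was called higher in knockout (0.59 ± 0.14, adjusted p = 0.0213) and lower with AKFP (-0.69 ± 0.14, adjusted p = 0.0156). *Irf2*, a repressor among the interferon regulatory factors, was called lower in knockout (-0.28 ± 0.07, adjusted p = 0.0215). With AKFP against knockout *Socs3* (-0.78 ± 0.09) and the phosphatase *Ptpn6* (-0.33 ± 0.07) were also called lower and the phosphatase *Ptpn11* (0.38 ± 0.11) higher, so 3 of 7 inhibitors were called lower and 1 higher.

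**Figure D5:**
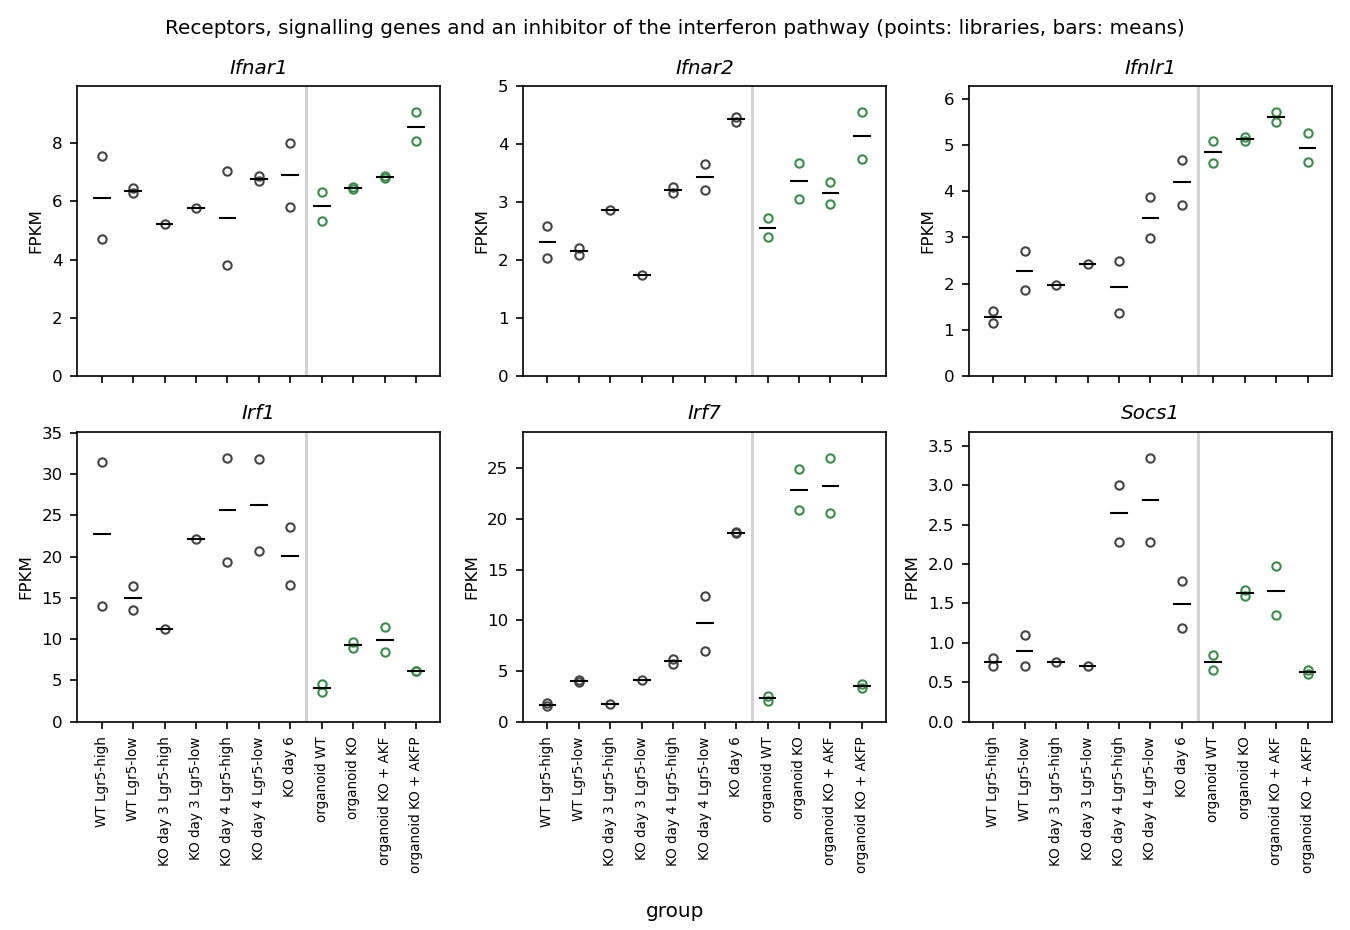
FPKM of 2 chains of the type I receptor, the type III receptor chain *Ifnlr1*, *Irf1*, *Irf7* and *Socs1* in every library (points; bars at group means; tissue left and organoids right of the grey line). *Irf7* reached 18.6 and 18.7 FPKM at day 6 and fell with AKFP, and the highest tissue values of *Socs1* were at day 4.

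The 16 immune markers summed to 6.27 to 14.8 FPKM over the WT and day 3 libraries, 6.39 to 27.2 at day 4 and 7.05 and 7.63 at day 6, where the members were highest. The top value belonged to day 4 Lgr5-low replicate 2, led by *Gzma* at 14.9 and *Gzmb* at 5.96 FPKM; in that fraction the members were also higher in this library than in its partner, and the part of those cells in that was not tested. In organoids *Ptprc*, the gene of the leukocyte marker CD45, was listed at 0 in all 8 libraries, and 10 to 12 of the 16 immune markers were at 0 in each. *Cd68*, a macrophage marker, had 2.68 and 1.99 FPKM in WT organoids, 7.06 and 5.84 in knockout, 7.01 and 6.82 with AKF and 4.92 and 5.22 with AKFP. It was 1 of 2 immune markers tested in organoids and was called higher in knockout (1.16 ± 0.12, limma adjusted p = 0.00138). The other, *Itgam*, went down without a call, from 1.45 and 1.22 FPKM in WT to 0.967 and 0.562 in knockout (-0.41). *Adgre1* was at 0 and *Csf1r* at most 0.0308 FPKM in the organoids. The part of *Cd68* in the members' rise was not tested. The 6 stromal and endothelial markers summed to at most 2.59 FPKM in tissue and 0.314 in organoids. In bulk libraries a change in the share of cells and a change in RNA per cell cannot be told apart.

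The filter on low values, at least 1 FPKM in at least 2 libraries of a fit, was passed by 39 of 39 members in tissue and 38 of 39 in organoids. Of these, 17 in tissue and 23 in organoids did not reach 1 FPKM in 2 WT libraries and so passed only through other libraries, among them *Ifit1*, *Mx1*, *Rsad2* and *Usp18*; so their being tested at all rests on the libraries where they were high.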

How the data were processed

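RNA-seq of 12 sorted crypt and 8 organoid libraries was used as deposited. The build mm10 and the tools StringTie 1.3.3b and HISAT2 2.1.0 are named, per the submitters' processing notes. The tissue tables give FPKM per the file headers; the organoid headers name no unit, and their values were taken as deposited FPKM. Read counts and depth are not known from these tables, and strand in counting is not given in the sources used here. All columns were used.

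Values were analysed as log2(FPKM + 1) of the deposited values. Genes with at least 1 FPKM in at least 2 libraries of a fit were tested with limma 3.58.1 in R 4.3.3 (1 mean per group, empirical Bayes with trend), in 1 fit of 10 tissue libraries and 1 of 8 organoid libraries, two-sided, with Benjamini-Hochberg adjustment over all genes tested. The script was checked on simulated data. Day 3, with 1 library per fraction, was not tested.

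The members and lists were chosen with earlier results of these data known. Named were *Isg15* and *Ifit1* throughout, up to 8 called members of largest change per comparison, and the 3 of smallest unadjusted p where none was called; other members were named to account for the list. The signalling list is reported in part here. Promoters came from RefSeq (GRCm38.p6). Alternatives changed the pseudocount, filter, scaling, samples fitted, replicate block and libraries left out.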

Additional observations from a re-analysis of the deposited data

How the results depend on the processing

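Without read counts, how far depth limits low members such as *Slfn5* or *Rsad2* is not known, and 2 libraries a group leave each call resting on few values. With no filter on low values, which tests more genes, 2 members were called at day 4 in Lgr5-high, 0 in Lgr5-low, 4 at day 6 against day 4 Lgr5-high, 20 in AKFP against knockout, 20 against AKF and 10 against WT. With the fit held to the compared groups, which leaves fewer libraries for the spread, 6 members were called between the WT fractions. In that fit 695 of all genes were called higher and 737 lower. The counts of members were 0 for both day 4 comparisons and for day 6 against day 4 Lgr5-high. With equal FPKM sums 0 were called at day 4 in Lgr5-low, 21 at day 6 against WT Lgr5-high and 1 against day 4 Lgr5-high, and the cause was not tested; over all genes the day 6 calls against WT Lgr5-high were 1298 higher and 1530 lower as reported, 516 and 1287 with equal sums, and 1711 and 1299 with median-of-ratios scaling. Against WT Lgr5-low they were 802 and 677 as reported and 241 and 381 with equal sums. The organoid knockout calls were 2109 and 1461, and 1339 and 1932 with equal sums; AKFP against knockout gave 1666 and 1671, and 2591 and 1150, and against AKF 1626 and 1613, and 2530 and 1162. Other splits that a scaling moved were day 4 Lgr5-high, 94 and 42 against 67 and 54 with median-of-ratios scaling, and day 6 against day 4 Lgr5-high, 255 and 159 against 404 and 153. A pseudocount of 0.1 gave 8 members at day 6 against day 4 Lgr5-high. Median-of-ratios scaling gave 1 at day 6 against day 4 Lgr5-low. Removing the trend with exon length, an alternative chosen after seeing the data, gave 1 between the WT fractions.

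The difference between the libraries of a group, taken over all genes tested, was correlated from group to group. The correlations ran from 0.02 to 0.52 in tissue and from -0.04 to 0.09 in organoids. They were 0.44 between the WT fractions, 0.34 between the day 4 fractions and 0.52 between day 4 Lgr5-high and day 6. The labels do not say if same-numbered libraries were paired, and the main fit uses no pairing. With the replicate number as a block, 1 member was called between the WT fractions, 10 at day 4 in Lgr5-high, 10 in Lgr5-low, 0 in the interaction, 35 and 31 at day 6 against WT Lgr5-high and Lgr5-low, 20 and 1 against day 4, 36 in organoid knockout, 0 in AKF, and 34, 34 and 24 in AKFP against knockout, AKF and WT.

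Leaving out 1 library at a time gave 0 to 0 between the WT fractions, 0 to 6 at day 4 in Lgr5-high, 0 to 0 in Lgr5-low and in the interaction, 19 to 30 and 14 to 22 at day 6 against WT Lgr5-high and Lgr5-low, 3 to 23 and 0 to 0 against day 4, 29 to 34 in organoid knockout, 0 to 0 in AKF, and 19 to 27, 19 to 29 and 7 to 13 in AKFP against knockout, AKF and WT. Signs turned for uncalled values: the *Ifit1* difference between fractions was 1.01 with a pseudocount of 0.1, and over libraries left out it ran from -1.02 to 0.23 (the latter without day 4 Lgr5-low replicate 2). The *Isg15* interaction ran from -0.11 (without WT Lgr5-low replicate 2) to 1.34. With AKF against knockout, *Isg15* ran from -0.45 to 0.19 and *Ifit1* from -0.55 to 0.42, both positive without knockout replicate 2 (0.19 and 0.42) and without AKF replicate 1 (0.07 and 0.17).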
